A study of Homo sapiens with 36 samples.

Results

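Of 8 named WNT ligands and feedback genes (WNT7A, WNT7B, WNT5A, WNT5B, LGR5, DKK1, AXIN2 and TCF7), 6 had a row in a table of 15186 genes and 36 libraries. They were found by symbol, all 6 were among the 15179 genes tested, and DKK1 and TCF7 are not analysed here. The libraries were bulk RNA-seq of U2OS, a human osteosarcoma line, stably expressing the glucocorticoid receptor GR alpha, so every group carries that receptor. Cells received siRNA by lipid transfection and, 48 h later, 100 nM dexamethasone (dex, a synthetic glucocorticoid) or the ethanol vehicle for 8 h. There were 5 conditions with siRNA to at least 1 target, siHic5siNS, siCHD9siNS, siBRMsiNS, siCHD9siHic5 and siBRMsiHic5, and the condition siNSsiNS, whose label names none of the targets. Each of the 6 conditions had 3 dex and 3 vehicle libraries, made on different days, which gives 12 groups. The targets were Hic-5, a LIM-domain coregulator of steroid receptors, CHD9, a chromodomain helicase, and BRM, a SWI/SNF ATPase. The study asked whether genes whose regulation by GR is blocked by Hic-5 need CHD9 and BRM when Hic-5 is depleted.

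WNT proteins are secreted lipid-modified ligands. In the canonical branch they bind Frizzled and LRP receptors and stabilise beta-catenin, which then works with TCF/LEF factors on target genes. AXIN2, LGR5, NKD1 and NOTUM are widely used readouts of that branch and also feed back on it, whereas WNT5A and WNT5B mostly act through beta-catenin-independent routes. In bone, WNT signals promote osteoblast differentiation, and glucocorticoids are known to dampen them.

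Library totals were 27.4 to 47.1 M counts. The transcript of Hic-5, TGFB1I1, stood at 24.8%, 26.2% and 18.3% of its siNSsiNS vehicle level in vehicle cells with siHic5siNS, in the libraries labelled siCHD9siHic5 and with siBRMsiHic5, and that of BRM, SMARCA2, at 28.9% and 24.9% with siBRMsiNS and siBRMsiHic5. The CHD9 transcript stood at 67.9% with siCHD9siNS but at 139% in the vehicle libraries labelled siCHD9siHic5 (edgeR quasi-likelihood adjusted p = 0.0193 and 0.0293), and at 51.1% with siBRMsiHic5. The libraries labelled siCHD9siHic5 therefore go against the CHD9 part of their label, though not the Hic-5 part, and no direction below is tied to loss of CHD9. With dex, CHD9 stood at 89.2, 58.2 and 83.8 CPM in siCHD9siNS libraries, against 97.4, 91.7 and 81.5 CPM in siNSsiNS libraries, and these groups overlapped. CHD9 stood at 76.9% in siHic5siNS vehicle cells, whose label names no CHD9 siRNA, and TGFB1I1 at 141% in siCHD9siNS vehicle cells (adjusted p of 0.0789 and 0.0976, not passing). NR3C1, the gene of GR, stood at 148% of its siNSsiNS level in siHic5siNS vehicle cells. With dex it had 91.2, 96.5 and 84.9 CPM in siHic5siNS libraries, against 79.0, 83.4 and 65.7 CPM in siNSsiNS libraries. The vehicle libraries labelled siCHD9siHic5 had 119, 91.1 and 107 CPM, against 85.8, 92.3 and 70.2 CPM in siNSsiNS vehicle libraries. The bone matrix genes COL1A1 and SPARC averaged 2228 and 1731 CPM (counts relative to library size, scaled by upper-quartile factors). Other osteoblast lineage genes were far lower: RUNX2, SPP1, ALPL and TNFRSF11B averaged 32.1, 17.8, 21.1 and 23.2 CPM. Epithelial EPCAM, CDH1 and KRT5 averaged 3.03, 0.886 and 1.36 CPM and endothelial PECAM1, CDH5 and TEK 1.64, 0.616 and 1.02 CPM. The siBRMsiNS replicate 3 libraries lay farthest from their group means, with a residual SD of 0.376 (dex) and 0.366 (vehicle) on the log2 scale against 0.139 to 0.300 elsewhere. In bulk RNA, fewer cells of a type and less RNA per cell cannot be told apart.

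Transcript levels of the members differed widely. Per kilobase of merged exon, the mean level over 36 libraries was 7.39 CPM per kb for AXIN2, a scaffold of the beta-catenin destruction complex, and 4.58 CPM per kb for WNT5A. WNT5B followed at 2.26, WNT7B at 0.774, LGR5, a receptor for R-spondins, at 0.487 and WNT7A at 0.224 CPM per kb. WNT7A rested on 10 to 75 counts per library, so its ratios carry a large counting error. The plot of levels gives every library.

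**Figure D1:**
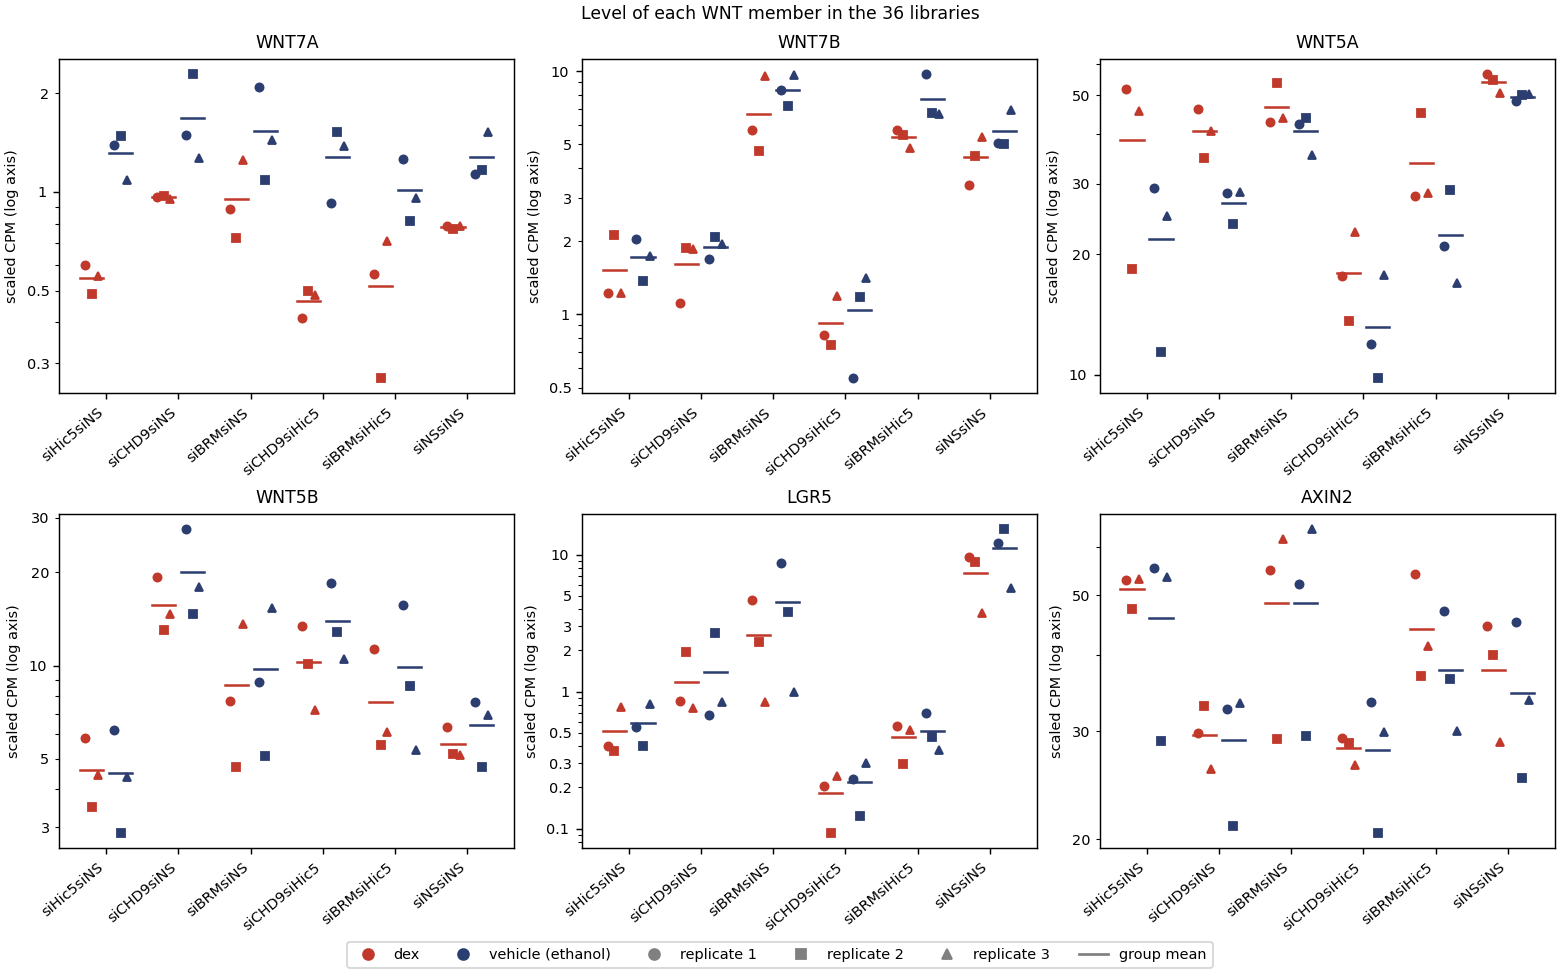
Scaled CPM of the 6 members in each library (log axes that differ between panels), by siRNA condition, with dex left of vehicle in each condition and siNSsiNS last; points are single libraries. WNT7A lies lower with dex in every same-number pair, LGR5 has its highest group means with siNSsiNS, and WNT7B is at 4.69 CPM or more in the siBRMsiNS and siBRMsiHic5 libraries.

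WNT7A lies on chromosome 3 (GRCh38, 13816258 to 13880121, minus strand) and WNT5A on the same chromosome (55465715 to 55490539, minus strand). Their RefSeq promoter windows (GRCh38.p14, 250 bases before to 50 after a transcript start) are shown because these genes had the clearest dex responses of the set, in opposite directions. Capitals mark the GC box GGGCGG, searched on both strands.
WNT7A, chr3:13880022-13880321, minus strand: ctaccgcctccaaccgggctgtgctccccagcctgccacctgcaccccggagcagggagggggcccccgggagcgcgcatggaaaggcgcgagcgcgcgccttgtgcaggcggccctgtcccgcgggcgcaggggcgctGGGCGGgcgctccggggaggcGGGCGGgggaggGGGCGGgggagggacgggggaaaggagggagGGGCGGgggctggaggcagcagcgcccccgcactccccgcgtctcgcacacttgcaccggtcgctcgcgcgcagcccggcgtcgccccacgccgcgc
WNT5A window 1, chr3:55487257-55487556, minus strand: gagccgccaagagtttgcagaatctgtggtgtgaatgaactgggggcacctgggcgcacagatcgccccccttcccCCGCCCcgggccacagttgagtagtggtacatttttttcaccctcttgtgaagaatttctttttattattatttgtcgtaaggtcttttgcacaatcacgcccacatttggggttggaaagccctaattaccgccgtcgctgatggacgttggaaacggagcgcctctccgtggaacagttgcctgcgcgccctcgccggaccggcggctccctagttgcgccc
WNT5A window 2, chr3:55481349-55481648, minus strand: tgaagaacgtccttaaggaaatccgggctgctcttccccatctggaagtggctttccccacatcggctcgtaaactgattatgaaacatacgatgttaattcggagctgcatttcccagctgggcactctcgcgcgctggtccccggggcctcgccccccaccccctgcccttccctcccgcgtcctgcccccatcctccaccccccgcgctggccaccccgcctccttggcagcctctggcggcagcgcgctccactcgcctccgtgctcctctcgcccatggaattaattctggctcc

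The WNT7A window was 80.3% G and C with 40 CpG and held 4 GC boxes. WNT5A window 1 was 56.3% G and C with 21 CpG and 1 GC box, and window 2 was 63.7% with 22 CpG and 0 GC boxes. Of 35116 promoter windows of the same length, 45.0% held a GC box. The palindromic GR element (AGAACA and its reverse complement, 3 bases apart), its left arm AGAACA, the TCF/LEF motif CTTTGAT and the AP-1 motif TGANTCA, each searched on both strands, were not found in these 3 windows, while 0.00285%, 14.8%, 2.62% and 7.71% of all windows held them. The left arm is part of the full element, so those hits overlap. RefSeq windows were matched for 5 of the 8 named genes, not for WNT7B, LGR5 or AXIN2.

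The first comparison asked how the members answered dex. WNT7A fell and WNT5A rose: the direction was the same in 18 of 18 same-number pairs of libraries for each gene. The smallest WNT5A ratios of dex to vehicle were near equality, 1.00 (siNSsiNS replicate 3) and 1.01 (siBRMsiNS replicate 1). How many of all genes had 18 pairs in 1 direction was not counted. The mean over the 6 conditions was a log2 change of -0.97 ± 0.12 (SE) for WNT7A (edgeR adjusted p = 1.205e-06) and of 0.46 ± 0.12 for WNT5A (edgeR adjusted p = 0.0161). The 18 pairs carry only 3 replicate numbers, and vehicle libraries of the same number correlated between some conditions (r up to 0.722). The tests have no term for dex responses shared by number. The pair counts and p values over conditions may therefore overstate the replication. WNT7B, WNT5B and LGR5 had smaller falls that passed the test only where the pairing of libraries was used, and AXIN2 did not pass it in either fit.

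Dex and vehicle libraries of the same condition and number deviated together (residual correlations 0.458 to 0.922 over 18 pairs). Each dex value was therefore also fitted with the pair as a block, and calls are counts of genes with a Benjamini-Hochberg adjusted p under 0.05 over all genes tested. For the mean over conditions, 2 of 6 members were called without the block, where 5.78% of all genes were, and 5 of 6 with it, where 27.6% were. The members' median log2 change was -0.28, against -0.00 for all genes. Within conditions, 0 of 6 members were called with siNSsiNS without the block and 1 with it (0.343% and 2.50% of all genes). With siHic5siNS the counts were 1 and 2 (0.876% and 8.92%). With siCHD9siNS they were 0 and 3 (0.962% and 24.1%), and with siBRMsiNS 0 and 1 (0.382% and 3.89%). The libraries labelled siCHD9siHic5 gave 1 and 3 (0.455% and 4.74%), and siBRMsiHic5 gave 0 and 2 (0.501% and 5.96%). In every condition the members' share with the block exceeded that of all genes, but a share of 6 genes moves in large steps. The members were also chosen with earlier results of these data known, and the same genes recurred among the calls of different conditions. These shares therefore do not set the members apart from all genes. Where 0 members were called, edgeR gave an unadjusted p under 0.05 for WNT7A alone with siNSsiNS (0.0229), siCHD9siNS (0.00904), siBRMsiNS (0.0241) and siBRMsiHic5 (0.00409), and DESeq2 also called 0. Of all 15179 genes, 379, 1495, 533 and 644 had such a p in these conditions, in that order.

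WNT7A encodes a ligand that can act through beta-catenin. It stood at 0.597, 0.490 and 0.556 CPM in siHic5siNS dex libraries, against 1.39, 1.48 and 1.08 CPM in their vehicle libraries. The libraries labelled siCHD9siHic5 had 0.412, 0.499 and 0.485 CPM with dex, against 0.925, 1.52 and 1.38 CPM with vehicle. Every dex library lay below every vehicle library in both conditions. With siNSsiNS the levels were 0.786, 0.774 and 0.789 CPM with dex, against 1.14, 1.17 and 1.53 CPM with vehicle. With siCHD9siNS they were 0.968, 0.971 and 0.953 CPM with dex, against 1.49, 2.29 and 1.27 CPM with vehicle. These groups did not overlap either. With siBRMsiHic5, WNT7A had 0.564, 0.272 and 0.711 CPM with dex, against 1.26, 0.818 and 0.957 CPM with vehicle. With siBRMsiNS it had 0.887, 0.725 and 1.25 CPM with dex, against 2.09, 1.08 and 1.44 CPM with vehicle. Of the 6 conditions, siBRMsiNS alone had dex and vehicle libraries that overlapped.

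The WNT7A log2 change was -1.26 ± 0.30 with siHic5siNS (adjusted p = 0.0353, 0.00340 with the block) and -1.45 ± 0.31 in the libraries labelled siCHD9siHic5 (0.0152, 0.00177 with the block). It was -0.80 ± 0.28 with siCHD9siNS (0.246, 0.0167 with the block) and -0.96 ± 0.31 with siBRMsiHic5 (0.348, 0.0349 with the block). With siNSsiNS (-0.71 ± 0.29) and siBRMsiNS (-0.67 ± 0.28) it passed in neither fit (block adjusted p = 0.150 and 0.109). A direct test of the difference between siHic5siNS and siNSsiNS gave -0.55 ± 0.42 (block adjusted p = 0.766), so the WNT7A responses in these conditions were not shown to differ. WNT7A was called in none of the differences tested. The response in the libraries labelled siCHD9siHic5 was not tested against that with siNSsiNS or siBRMsiNS. The dex to vehicle ratio of pairs ran from 0.328 to 0.869 with a median of 0.481.

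Single WNT7A calls depended on single libraries. Without the block, the siHic5siNS call was lost (adjusted p = 0.109, 0.153, 0.125, 0.133 and 0.169) without dex replicate 1, 2 or 3 or vehicle replicate 1 or 2, and the call in the libraries labelled siCHD9siHic5 was lost (0.112, 0.0591, 0.0931, 0.119 and 0.0899) without dex replicate 1, 2 or 3 or vehicle replicate 2 or 3. With the block, the siHic5siNS call was lost without pair 2 (0.0502), the siCHD9siNS call without pair 1 or 2 (0.0757 and 0.159) and the siBRMsiHic5 call without pair 1 or 2 (0.168 and 0.204). The call in the libraries labelled siCHD9siHic5 with the block and the mean over conditions were kept whichever pair was left out.

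WNT5A encodes a ligand of the beta-catenin-independent branch. With siHic5siNS it stood at 52.0, 18.3 and 45.7 CPM in dex libraries, against 29.3, 11.4 and 24.9 CPM in vehicle libraries. Replicate 2 was low on both arms, so the groups overlapped although each pair rose by a similar factor. With siCHD9siNS the levels were 46.2, 34.8 and 40.8 CPM with dex, against 28.4, 23.9 and 28.6 CPM with vehicle, with no overlap. With siBRMsiHic5 they were 27.9, 45.1 and 28.5 CPM with dex, against 21.0, 28.9 and 17.0 CPM with vehicle. The libraries labelled siCHD9siHic5 had 17.7, 13.6 and 22.7 CPM with dex, against 11.9, 9.82 and 17.8 CPM with vehicle. Those last groups overlapped, though each dex library exceeded its own partner. In siBRMsiNS cells WNT5A stood at 42.7, 53.6 and 43.7 CPM with dex, against 42.3, 44.0 and 35.5 CPM with vehicle. In siNSsiNS cells it stood at 56.4, 54.6 and 50.7 CPM with dex, against 48.4, 50.1 and 50.4 CPM with vehicle. The siNSsiNS groups were separate but close, and replicate 3 differed by a ratio of only 1.00.

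Without the block, the WNT5A dex change passed in none of the 6 conditions (log2 0.12 to 0.82, adjusted p of 0.386 or more). With the block it was 0.80 ± 0.07 with siHic5siNS (adjusted p = 1.589e-06), 0.59 with siCHD9siNS (6.497e-05), 0.60 with siBRMsiHic5 (6.376e-05) and 0.46 in the libraries labelled siCHD9siHic5 (0.00157). It was 0.20 with siBRMsiNS (0.116) and 0.12 with siNSsiNS (0.566), where it did not pass. The 4 block calls were kept whichever pair was left out. Without siHic5siNS dex replicate 2, the siHic5siNS change also passed without the block (1.16, adjusted p = 0.0399).

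The size of the WNT5A response differed between conditions in the fit with the block. The response with siHic5siNS exceeded that with siNSsiNS by 0.69 on the log2 scale (block adjusted p = 0.00972), and that with siCHD9siNS exceeded it by 0.47 (0.0236). For these differences, 0 of 6 members were called without the block and 1 of 6, WNT5A, with it. Of all genes, 0% and 0.184% were called for siHic5siNS minus siNSsiNS, and 0.00659% and 4.05% for siCHD9siNS minus siNSsiNS. The siHic5siNS difference was lost without siNSsiNS pair 3 (0.63, adjusted p = 0.0648). The siCHD9siNS difference was lost without siNSsiNS pair 1 (0.52, 0.0969) or pair 3 (0.41, 0.116), or without siCHD9siNS pair 1 (0.41, 0.166) or pair 2 (0.49, 0.0608). For the other 3 differences 0 members were called in either fit: siBRMsiNS minus siNSsiNS (0% and 0% of all genes), siCHD9siHic5 minus siHic5siNS (0% and 0.145%) and siBRMsiHic5 minus siHic5siNS (0% and 0.184%). At an unadjusted p under 0.05, edgeR without the block gave 125, 464, 25, 116 and 302 of all genes in these 5 differences, in the order named, and 0 of them were members, and DESeq2 also called 0 members in each. With the block, WNT5A and WNT5B had an unadjusted p under 0.05 for siCHD9siHic5 minus siHic5siNS (0.00526 and 0.0170), among 1132 of all 15179 genes. The WNT5A response with siBRMsiHic5 was lower than that with siHic5siNS by 0.20 on the log2 scale, and that in the libraries labelled siCHD9siHic5 by 0.34, and neither passed (block adjusted p = 0.399 and 0.409).

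**Figure D2:**
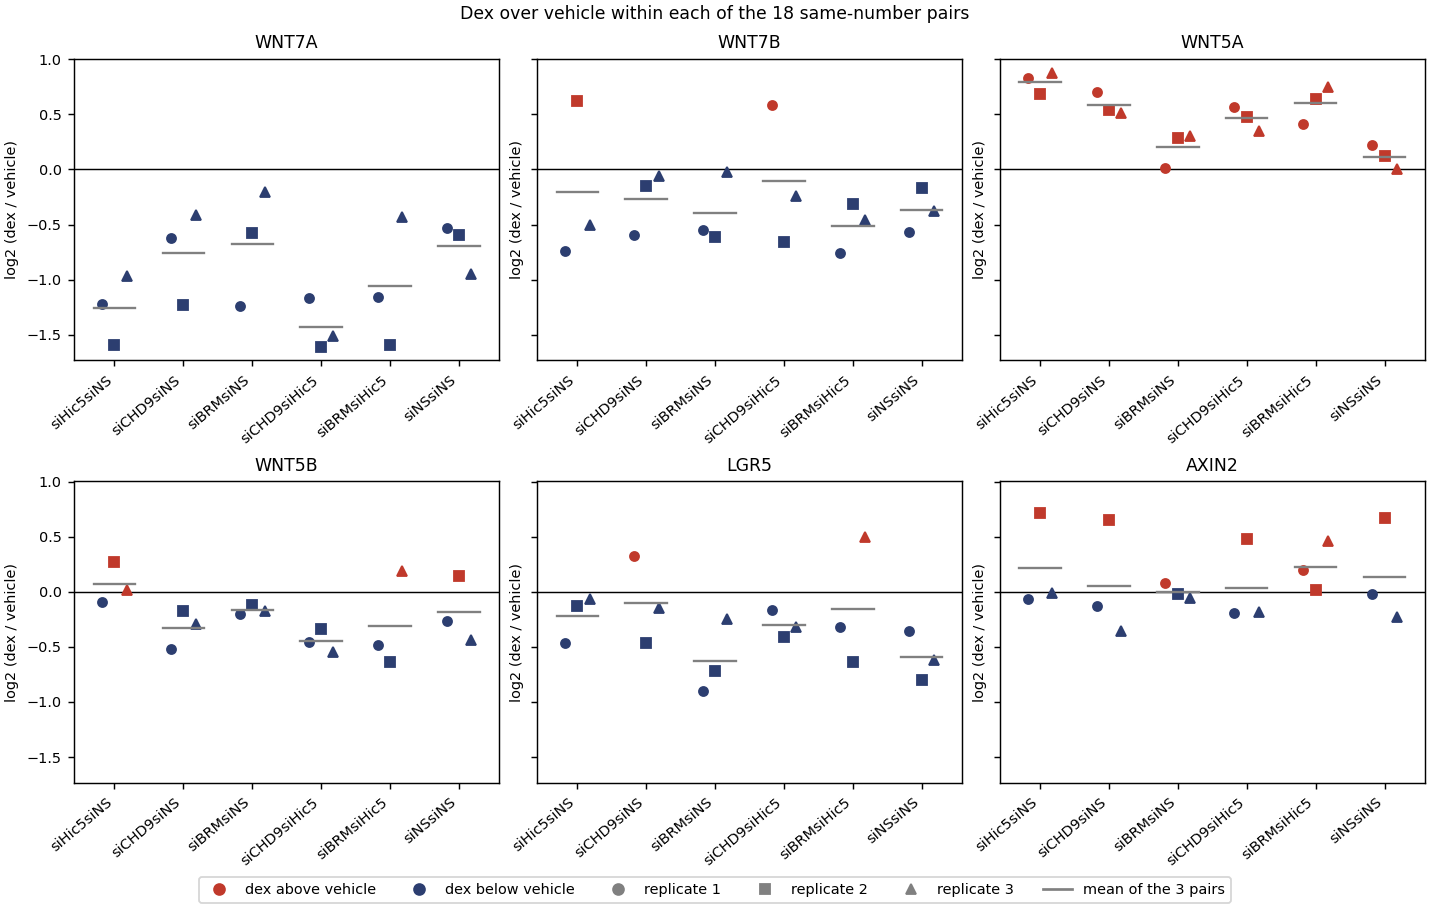
Log2 ratio of dex to vehicle CPM for each of 18 same-number pairs, by member and siRNA condition; the line at 0 marks equal levels. All 18 WNT7A pairs lie below 0, all 18 WNT5A pairs lie above 0, and AXIN2 pairs lie on both sides.

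LGR5, WNT5B and WNT7B were lower with dex in most pairs. LGR5 had 9.56, 8.85 and 3.74 CPM with dex in siNSsiNS cells, against 12.2, 15.4 and 5.73 CPM with vehicle, and each pair was lower although the groups overlapped. Its block change was -0.59 there (adjusted p = 0.0167), which was lost without pair 2 (-0.47, 0.240) or pair 3 (-0.58, 0.09996). With siBRMsiNS the LGR5 block change was -0.70 (0.0134), lost without pair 1 (-0.55, 0.341) or pair 2 (-0.68, 0.116). Over all conditions the LGR5 block mean was -0.34 (0.0148), with 16 of 18 pairs lower, and it was lost without the siCHD9siHic5 pair 3 (0.0525). WNT5B, a close relative of WNT5A, was lower in 14 of 18 pairs, and its block mean was -0.24 (0.00248). Its block calls with siCHD9siNS (-0.33, 0.0494) and in the libraries labelled siCHD9siHic5 (-0.45, 0.0411) were lost whichever of the 3 pairs was left out (adjusted p of 0.0561 to 0.354 and 0.0937 to 0.235). The siCHD9siNS call was also lost with TMM factors (edgeR adjusted p = 0.0515) and with no factors (0.0859). Without siBRMsiHic5 pair 3, the WNT5B change with siBRMsiHic5 passed (-0.55, 0.0174). WNT7B, which like WNT7A can act through beta-catenin, was lower in 16 of 18 pairs with a block mean of -0.31 (0.0124), and passed in no single condition. AXIN2 was lower in 10 and higher in 8 of 18 pairs, with ratios of 0.781 to 1.64 and a block mean of 0.11 (0.334). In vehicle, AXIN2 replicate 2 was the lowest library of its group in 5 of 6 conditions. The AXIN2 ratio of pair 2 was 1.59 with siNSsiNS, 1.64 with siHic5siNS, 1.57 with siCHD9siNS and 1.398 in the libraries labelled siCHD9siHic5. Pairs 1 and 3 of these conditions were all lower with dex. With siBRMsiNS and siBRMsiHic5 the pair 2 ratios were 0.989 and 1.01. How far replicate 2 carries the AXIN2 block mean was not tested.

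The next comparison asked how the siRNAs moved the members in vehicle cells. WNT7B, WNT5A and LGR5 fell with siHic5siNS, with siCHD9siNS and in the libraries labelled siCHD9siHic5. WNT5A and LGR5 also fell with siBRMsiHic5, where WNT7B did not. WNT5B rose with siCHD9siNS and in the libraries labelled siCHD9siHic5. WNT7A and AXIN2 passed in none of the 5 comparisons with siNSsiNS.

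Against siNSsiNS, 3 of 6 members were called with siHic5siNS, where 53.1% of all genes were, and 4 of 6 with siCHD9siNS, where 32.3% were. In the libraries labelled siCHD9siHic5 it was 4 of 6 (52.6% of all genes), and with siBRMsiHic5 2 of 6 (49.0%). With 6 genes, these shares do not set the members apart from all genes. With siBRMsiNS edgeR called 0 of 6 (6.44%), as did DESeq2. There 1 member, LGR5, had an unadjusted edgeR p under 0.05 (0.0308), among 3909 of all 15179 genes. The siBRMsiNS count of all genes rested on few libraries: 978 genes were called, against 13, 43 and 18 without siNSsiNS vehicle replicate 1, siNSsiNS vehicle replicate 2 or siBRMsiNS vehicle replicate 3. The members' median log2 change was -0.85 with siHic5siNS, -0.57 with siCHD9siNS, 0.37 with siBRMsiNS, -1.11 in the libraries labelled siCHD9siHic5 and -0.11 with siBRMsiHic5, while that of all genes lay between -0.05 and 0.04. The 5 comparisons share the siNSsiNS libraries.

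**Figure D3:**
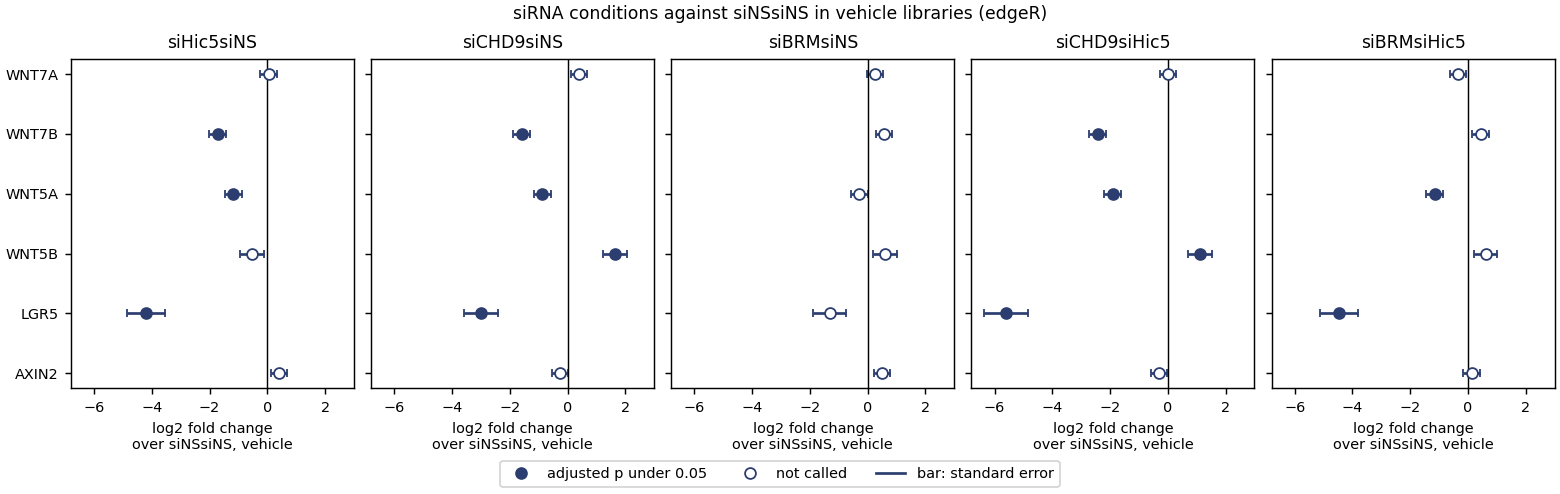
Log2 change ± SE of each member against siNSsiNS in vehicle libraries, for the 5 other siRNA conditions; filled points are called at an adjusted p under 0.05. WNT7B is at -1.73, -1.58 and -2.43 with siHic5siNS, with siCHD9siNS and in the libraries labelled siCHD9siHic5 but at 0.56 and 0.44 with siBRMsiNS and siBRMsiHic5.

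WNT7B (chromosome 22, 45920362 to 45977129, minus strand) had 2.04, 1.38 and 1.73 CPM in siHic5siNS vehicle libraries and 1.68, 2.07 and 1.94 CPM in siCHD9siNS vehicle libraries. The vehicle libraries labelled siCHD9siHic5 had 0.549, 1.18 and 1.41 CPM. The siNSsiNS vehicle libraries had 5.08, 5.03 and 6.95 CPM, above every library of these 3 conditions. WNT7B fell to 30.2%, 33.4% and 18.6% of the siNSsiNS level there (log2 -1.73 ± 0.29, -1.58 ± 0.29 and -2.43 ± 0.30, adjusted p = 2.458e-05, 1.855e-04 and 2.678e-07). In siBRMsiHic5 cells the levels were 9.72, 6.77 and 6.66 CPM and in siBRMsiNS cells 8.36, 7.20 and 9.65 CPM, at 135% and 148% of the siNSsiNS mean. Neither passed the test (adjusted p = 0.199 and 0.201), though the siBRMsiNS libraries lay above all siNSsiNS libraries.

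The siBRM libraries also set WNT7B apart where Hic-5 siRNA was present. With siBRMsiHic5, WNT7B averaged 7.71 ± 1.74 CPM (SD, n = 3), against 1.72 ± 0.331 CPM with siHic5siNS, which is 448% of it (log2 2.16 ± 0.29, adjusted p = 1.342e-06), and every library lay above. Hic-5 siRNA itself moved WNT7B by -0.13 ± 0.28 beside siBRM (siBRMsiHic5 against siBRMsiNS, adjusted p = 0.777) and by -1.73 beside siNS. The test of the difference between these effects gave 1.60 ± 0.40 (adjusted p = 0.00581), and the call was kept whichever of the 12 vehicle libraries was left out (1.402 to 1.74). Between the libraries labelled siCHD9siHic5 and siCHD9siNS the WNT7B change was -0.85 ± 0.31 (0.0318), lost without siCHD9siNS replicate 2 (0.0848) or 3 (0.0666) or siCHD9siHic5 replicate 1 (-0.55, 0.194). The difference of that effect from the effect beside siNS, 0.88 ± 0.43, did not pass (0.144), but did so without siCHD9siHic5 replicate 1 (1.18, 0.0475).

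In these added comparisons 3 of 6 members were called between the libraries labelled siCHD9siHic5 and siCHD9siNS (36.7% of all genes), and 2 of 6 between siBRMsiHic5 and siBRMsiNS (22.4%). For the difference of Hic-5 siRNA effects, 0 of 6 were called with siCHD9, as labelled, minus with siNS by edgeR (21.2% of all genes), and DESeq2 also called 0. WNT7B alone of the members had an unadjusted edgeR p under 0.05 there (0.0482), among 5143 of all 15179 genes. With siBRM minus with siNS, 1 of 6 was called, WNT7B (20.9%). Comparisons of the libraries labelled siCHD9siHic5 and of siBRMsiHic5 with siHic5siNS gave 3 of 6 (47.7%) and 2 of 6 (49.4%).

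WNT5A stood at 29.3, 11.4 and 24.9 CPM in siHic5siNS vehicle libraries, against 48.4, 50.1 and 50.4 CPM in siNSsiNS vehicle libraries. It was at 44.1% of siNSsiNS with siHic5siNS, 54.3% with siCHD9siNS, 26.6% in the libraries labelled siCHD9siHic5 and 44.9% with siBRMsiHic5, and no library of these 4 groups reached the lowest siNSsiNS library. The log2 changes were -1.18 ± 0.30, -0.88 ± 0.30, -1.91 ± 0.30 and -1.15 ± 0.30 (adjusted p = 0.00170, 0.0245, 9.38e-06 and 0.00250). The siCHD9siNS call was lost without siNSsiNS replicate 1 (0.0502) or 2 (0.0570) or siCHD9siNS replicate 1 (0.0583) or 2 (0.0753). With siBRMsiNS, WNT5A was at 81.7% and did not pass (adjusted p = 0.558).

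WNT5A was lower again in both double siRNA conditions, as labelled, than with the CHD9 or BRM siRNA and siNS. The libraries labelled siCHD9siHic5 averaged 13.2 ± 4.12 CPM, against 26.9 ± 2.67 CPM with siCHD9siNS (log2 -1.03 ± 0.30, adjusted p = 0.00874, lost without siCHD9siHic5 replicate 2 at 0.0556). With siBRMsiHic5 WNT5A averaged 22.3 ± 6.08 CPM, against 40.6 ± 4.51 CPM with siBRMsiNS (-0.86 ± 0.30, 0.0374). That call was lost without siBRMsiNS replicate 1 (0.0988) or 2 (0.0976) or siBRMsiHic5 replicate 1 (0.101) or 3 (0.159). Between the libraries labelled siCHD9siHic5 and those with siHic5siNS the groups overlapped and the change of -0.73 ± 0.30 passed narrowly (0.0479). It was lost with TMM factors (-0.70, 0.0555) and without siHic5siNS replicate 1 (-0.46, 0.259) or 3 (0.136) or siCHD9siHic5 replicate 1 (0.130) or 2 (0.185).

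LGR5 (chromosome 12, 71439770 to 71586310, plus strand) fell most in fold among the members. The vehicle libraries labelled siCHD9siHic5 had 0.231, 0.124 and 0.303 CPM, from 8, 4 and 14 counts, against 12.2, 15.4 and 5.73 CPM in siNSsiNS vehicle libraries, from 366, 461 and 203 counts. The fitted level was 2.07% of siNSsiNS. With siHic5siNS LGR5 had 0.550, 0.403 and 0.813 CPM (5.39%), from 17, 12 and 30 counts. With siBRMsiHic5 it had 0.702, 0.464 and 0.374 CPM (4.55%), from 19, 17 and 16 counts, so these low levels carry a large counting error. All libraries of these 3 groups lay below all siNSsiNS libraries by a wide margin. With siCHD9siNS the levels were 0.679, 2.68 and 0.841 CPM (12.5%), and replicate 2 stood apart. With siBRMsiNS they were 8.70, 3.81 and 0.997 CPM (40.3%), and replicate 1 was the only vehicle library of another condition to exceed the lowest siNSsiNS library.

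The LGR5 log2 changes were -4.21 ± 0.65 with siHic5siNS (adjusted p = 1.06e-05) and -3.00 ± 0.59 with siCHD9siNS (6.083e-04), the second at -3.86 (2.983e-04) without siCHD9siNS replicate 2. They were -5.60 ± 0.75 in the libraries labelled siCHD9siHic5 (6.646e-07) and -4.46 ± 0.66 with siBRMsiHic5 (1.09e-05). These calls, and those of WNT7B against siNSsiNS, were kept whichever vehicle library was left out. With siBRMsiNS the change of -1.31 ± 0.57 did not pass (0.151), but did so without siBRMsiNS replicate 1 (-2.21, 0.0230). LGR5 was lower in the libraries labelled siCHD9siHic5 than with siCHD9siNS (-2.59 ± 0.78, 0.00763), which was lost without siCHD9siNS replicate 2 (-1.74, 0.0925). It was also lower with siBRMsiHic5 than with siBRMsiNS (-3.15 ± 0.66, 0.00162), at -2.25 (0.0272) without siBRMsiNS replicate 1. The LGR5 gene shares 208 exonic bases with the antisense gene AC078860.1, and whether reads were counted by strand is not given in the sources used here.

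WNT5B (chromosome 12, 1529891 to 1647243, plus strand) moved the other way. It had 27.6, 14.7 and 17.98 CPM in siCHD9siNS vehicle libraries, against 7.65, 4.70 and 6.95 CPM in siNSsiNS vehicle libraries. The vehicle libraries labelled siCHD9siHic5 had 18.5, 12.8 and 10.5 CPM. Both groups lay above all siNSsiNS libraries. The log2 change was 1.64 ± 0.41 with siCHD9siNS (312% of siNSsiNS, adjusted p = 0.00340), kept whichever library was left out. It was 1.11 ± 0.41 in the libraries labelled siCHD9siHic5 (216%, 0.0249), lost without siNSsiNS replicate 2 (0.93, 0.105) or siCHD9siHic5 replicate 1 (0.85, 0.122). Since WNT5B stood at 4.49 ± 1.66 CPM with siHic5siNS, the level in the libraries labelled siCHD9siHic5 was higher than that too (1.63 ± 0.41, 0.00207). With siBRMsiHic5 WNT5B averaged 9.89 ± 5.30 CPM, 1.13 ± 0.41 above siHic5siNS on the log2 scale (0.0258) with overlapping libraries, and this was lost without siHic5siNS replicate 2 (0.90, 0.124) or 3 (1.11, 0.0628) or siBRMsiHic5 replicate 1 (0.64, 0.240). With siBRMsiNS (152%) and siHic5siNS (69.8%) WNT5B did not pass against siNSsiNS (adjusted p = 0.360 and 0.304).

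AXIN2 (chromosome 17, 65528563 to 65561647, minus strand) averaged 45.9 ± 14.8 CPM with siHic5siNS, 28.997 ± 6.94 with siCHD9siNS, 48.6 ± 17.6 with siBRMsiNS, 28.0 ± 6.68 in the libraries labelled siCHD9siHic5 and 37.8 ± 8.61 with siBRMsiHic5, against 34.7 ± 10.02 CPM with siNSsiNS (vehicle, SD, n = 3). All 5 groups overlapped with siNSsiNS, and the adjusted p was 0.234 or more. The libraries labelled siCHD9siHic5 were lower than siHic5siNS (-0.72 ± 0.28, adjusted p = 0.0399). That call came from overlapping groups and was lost without siHic5siNS replicate 1 (0.154) or 3 (0.133) or siCHD9siHic5 replicate 2 (-0.54, 0.174) or 3 (0.0615). AXIN2 shares 1316 exonic bases with AC004805.1 on the same strand, so part of its count is uncertain. WNT7A vehicle levels lay between 1.01 ± 0.224 CPM with siBRMsiHic5 and 1.68 ± 0.533 CPM with siCHD9siNS, against 1.28 ± 0.216 CPM with siNSsiNS, and passed nowhere.

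In the libraries labelled siCHD9siHic5 against siHic5siNS, WNT7B missed the threshold (-0.70 ± 0.31, adjusted p = 0.0643) and passed it with the replicate number as a block (-0.73, 0.0419) and without siCHD9siHic5 replicate 3 (-0.99, 0.0255). With that block 4 of 6 members were called, where 52.7% of all genes were.

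Other WNT genes were read from lists of 80 genes, of which 62 were tested. For the mean dex response 4 rose and 1 fell without the block (8.06%, against 5.78% of all genes), and 11 rose and 11 fell with it (35.5%, against 27.6%). NKD1, a Dishevelled-binding inhibitor, rose, with a log2 change of 0.74 ± 0.10 (adjusted p = 7.872e-06). KREMEN1, a DKK receptor, rose by 0.45 ± 0.07 (3.623e-05), and the Frizzled receptors FZD4 and FZD5 rose by 0.41 ± 0.07 (2.386e-04) and 0.19 ± 0.06 (0.0396). WLS, which carries WNT proteins to the cell surface, fell by 0.22 (SE 0.07, 0.0431). These are the genes called without the block. Among those called only with it, SOSTDC1, from the list of secreted antagonists, had a change of -1.21 (block adjusted p = 0.00132), further down than WNT7A. Its mean level was only 0.379 CPM. In siNSsiNS cells NKD1 averaged 33.8 ± 6.51 CPM with dex, against 18.1 ± 4.35 CPM with vehicle (block change 0.92, 0.00192), with no overlap. In siHic5siNS cells it averaged 71.0 ± 5.01 CPM with dex, against 66.7 ± 4.02 CPM with vehicle.

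**Figure D4:**
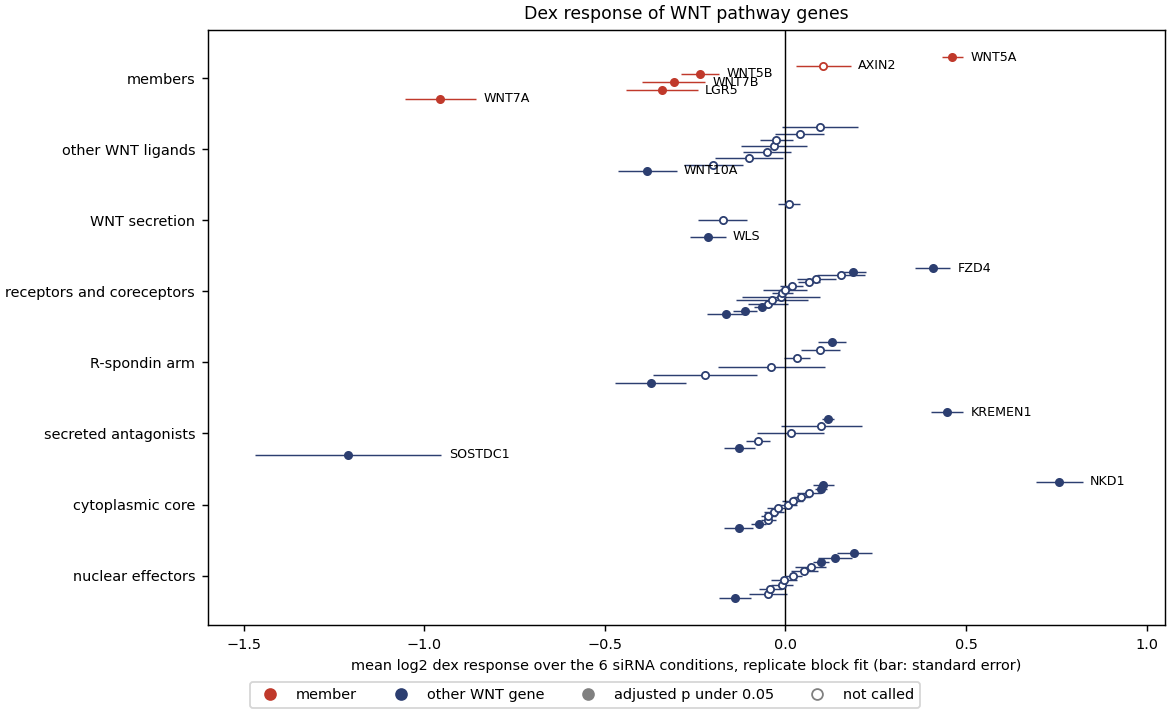
Mean dex response over the 6 siRNA conditions (log2 change ± SE, fit with the pairs as a block) for the 6 members in red and 62 other WNT genes in blue, grouped by list; filled points are called at an adjusted p under 0.05. WNT7A lies at -0.96 and WNT5A at 0.46, NKD1 has the highest value at 0.76, and SOSTDC1 (mean 0.379 CPM) has the lowest at -1.21.

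In vehicle, the other WNT genes were called about as often as all genes. With siHic5siNS 16 rose and 14 fell (48.4% of 62, against 53.1% of all genes), with siCHD9siNS 7 and 15 (35.5%, against 32.3%), and with siBRMsiNS 0 and 3 (4.84%, against 6.44%). In the libraries labelled siCHD9siHic5 11 rose and 24 fell (56.5%, against 52.6%), and with siBRMsiHic5 2 rose and 26 fell (45.2%, against 49.0%). Targets of the canonical branch did not move together with siHic5siNS: while LGR5 fell and AXIN2 did not pass, NKD1 averaged 66.7 ± 4.02 CPM, against 18.1 ± 4.35 CPM with siNSsiNS (1.88 ± 0.25, adjusted p = 8.763e-07). NOTUM, a secreted enzyme that inactivates WNT proteins, averaged 46.1 ± 8.06 CPM with siHic5siNS, against 15.999 ± 2.29 CPM (1.53 ± 0.32, 2.789e-04). LGR4, the relative of LGR5, averaged 15.6 ± 1.03 CPM, against 42.6 ± 5.15 CPM (-1.45 ± 0.27, 7.431e-05).

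In the other 3 Hic-5 or CHD9 siRNA conditions NKD1, NOTUM and LGR4 all fell against siNSsiNS. With siCHD9siNS the log2 changes were -0.96, -1.23 and -0.85 in that order of genes (adjusted p = 0.00496, 0.00497 and 0.0169). In the libraries labelled siCHD9siHic5 they were -1.78, -2.93 and -1.47 (2.601e-06, 1.258e-07 and 5.85e-05), and with siBRMsiHic5 -0.95, -1.74 and -2.02 (0.00307, 1.221e-04 and 2.502e-06). The Hic-5 siRNA effect on NKD1 differed beside siBRM from that beside siNS by -3.21 (1.332e-06), opposite in sign to the WNT7B difference of 1.60. SFRP1, a secreted WNT antagonist, rose with siHic5siNS (1.08, 3.313e-04) and fell with siCHD9siNS (-0.90, 0.00431) and in the libraries labelled siCHD9siHic5 (-1.87, 3.38e-07). WNT3A, a canonical ligand, rose with siHic5siNS (1.84, 2.773e-06), siCHD9siNS (1.37, 3.246e-04) and siBRMsiHic5 (1.39, 1.379e-04). WNT10B, also a ligand, fell with siHic5siNS (-1.95, 1.609e-04) as WNT7B did. RNF43, a ubiquitin ligase that removes Frizzled receptors, fell in the libraries labelled siCHD9siHic5 (-3.19, 7.304e-05).

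Across the 12 group means of log2(CPM + 0.5), which share the siRNA conditions and so are no independent points, the tested genes most like each member were listed by Pearson's r. WNT7B was closest to POLR1E (0.987), CYTH4 (0.983) and ITGB4 (0.982), and LGR5 to LAMA5 (0.987), KY (0.986) and RGSL1 (0.983). WNT5A was closest to SYT2 (0.978), CEP162 (0.963) and RNF115 (0.962), and WNT5B to CRLS1 (0.972), MOK (0.971) and RPS27L (0.970). AXIN2 was closest to SEPT4 (0.980), PEX26 (0.971) and STK38 (0.968), and WNT7A to TIFA (0.853), ZNF335 (0.837) and EMX1 (0.815). Among the members themselves, WNT5A and LGR5 had the highest r (0.801) and WNT5B and AXIN2 the lowest (-0.742).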

How the data were processed

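RNA-seq was done on 36 libraries, 3 biological replicates in each of 12 groups. Per the submitters' processing notes the authors used TopHat2 2.1.1, edgeR and GRCh38. How reads were counted, with which annotation and strand setting, is not given in the sources used. The deposited values are raw counts per gene: all are whole numbers, with totals of 27.4 to 47.1 M, although the table's name speaks of normalised CPM.

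Counts were fitted with edgeR 4.0.16 (glmQLFit and glmQLFTest, R 4.3.3), upper-quartile factors and 12 group means (24 residual degrees of freedom). The fit kept every gene whose scaled CPM exceeded 1 in 3 or more libraries (7 genes did not), and Benjamini-Hochberg adjustment ran over all genes kept. Errors of log2 changes are SE and errors of levels are SD. Each library was compared with the libraries of the other treatment in its own condition, and 36 of 36 correlated best with the one of their own number. The block for dex responses therefore has 18 pair terms and 6 dex terms (12 residual degrees of freedom). The biological coefficient of variation was 19.0% without it and 7.59% with it. Vehicle libraries of the same number also correlated between conditions, with r from -0.242 to 0.722, so a pair is not always the closest match. For vehicle comparisons the block is the replicate number (22 residual degrees of freedom), and all 3 numbers correlated over 0.1 in 5 of 9 of them, siCHD9siHic5 against siHic5siNS included. Within groups, no library was a copy of another: among 36 pairs of replicates, the most alike had a chi-square of 9.41 per degree of freedom (genes with a count of at least 20). Libraries of different groups were not compared in this way.

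Of 23 comparisons, 5 were added after values were seen: the mean dex response, siCHD9siHic5 against siCHD9siNS, siBRMsiHic5 against siBRMsiNS, and both differences of Hic-5 siRNA effects. The members, gene lists and tests were chosen with earlier results of these data known. Other WNT genes were taken by rule, up to 4 per list and comparison with the smallest p among those called without or with the block. Only part of the genes so taken are named in the text, so they are not the full top of each list. The list of secreted antagonists also holds the Kremen receptors. Both fits were tested on simulated data. Alternatives were TMM factors, no factors, no filter on low counts, DESeq2 1.42.0, the block, and each library or pair left out. Exon lengths came from GENCODE 29 and promoters from RefSeq GRCh38.p14.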

Additional observations from a re-analysis of the deposited data

Results flagged for a closer look

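Of the differences of effects tested between siRNA conditions for the members, 3 passed. The WNT5A dex response was 0.69 higher on the log2 scale with siHic5siNS than with siNSsiNS (edgeR with the pairs as a block, adjusted p = 0.00972), and in siHic5siNS cells all 3 pairs rose more than any siNSsiNS pair did. It was 0.47 higher with siCHD9siNS than with siNSsiNS (adjusted p = 0.0236). With the block, 0.184% and 4.05% of all genes were called for these differences. Each WNT5A call was lost when particular single pairs were left out, and without the block neither difference passed. The Hic-5 siRNA effect on WNT7B in vehicle cells was 1.60 higher on the log2 scale beside siBRM than beside siNS (edgeR adjusted p = 0.00581). For that difference 20.9% of all genes were called, so a call for 1 member does not set the members apart. The TGFB1I1 transcript stood at 18.3% of siNSsiNS with siBRMsiHic5 and at 24.8% with siHic5siNS, and the CHD9 transcript at 51.1% with siBRMsiHic5; their part in the WNT7B difference was not tested.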

How the results depend on the processing

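With the replicate block, the number of members called was 1 for the dex response with siNSsiNS, 2 with siHic5siNS, 3 with siCHD9siNS, 1 with siBRMsiNS, 3 in the libraries labelled siCHD9siHic5, 2 with siBRMsiHic5 and 5 for the mean dex response; it was 1 for the difference siHic5siNS minus siNSsiNS and 1 for siCHD9siNS minus siNSsiNS. The replicate number as a block changed the WNT7B call in siCHD9siHic5 against siHic5siNS and no other vehicle call of a member. With 1 library left out in turn, the count ran from 0 to 1 for the dex response with siHic5siNS and with siCHD9siHic5 and for siBRMsiNS against siNSsiNS, from 1 to 3 for siCHD9siHic5 against siHic5siNS and against siCHD9siNS, from 1 to 2 for siBRMsiHic5 against siHic5siNS and against siBRMsiNS, and from 0 to 1 for the difference of Hic-5 siRNA effects with siCHD9 minus with siNS. With 1 pair left out of the block fit, it ran from 0 to 1 with siNSsiNS and siBRMsiNS and for both differences named above, from 1 to 2 with siHic5siNS and siCHD9siNS and from 1 to 3 with siBRMsiHic5. No called member changed direction under any alternative run. Other scaling, DESeq2 or no filter on low counts kept every count of members called within 1.5 times. Single calls were still lost with other scaling. The WNT5B block call with siCHD9siNS was lost with TMM factors and with no factors, and the WNT5A call in siCHD9siHic5 against siHic5siNS with TMM factors. For all genes, the dex response with siCHD9siNS in the block fit split into 1699 higher and 1955 lower calls, against 2196 and 1181 with no factors, and the difference siCHD9siNS minus siNSsiNS into 335 and 279, against 398 and 132 with TMM and 317 and 131 with no factors. The cause of these shifts was not tested. WNT7A (10 to 75 counts) and LGR5 in the libraries labelled siCHD9siHic5 (3 to 14 counts), with siHic5siNS (12 to 30) and with siBRMsiHic5 (11 to 20) are limited by depth. The p values rest on a spread per gene between cultures of 1 cell line, pooled over the 12 groups. With the pairs as a block, it is the spread within the 18 pairs. Neither is the spread of only the groups compared.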
